A study of Mus musculus with 22 samples.

Results

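Fos, Fosb, Fosl1, Fosl2, Jun, Junb, Jund, Atf3, Egr1 and Ier3 were followed through the reprogramming of mouse fibroblasts. These 10 genes were taken by symbol from the 24130 genes of the count tables, and all 10 were found. Fos and Jun proteins are leucine zipper factors that pair on DNA as AP-1, a dimer that binds the TGANTCA element of fibroblast and stress enhancers. Fos, Fosb, Junb, Atf3, Egr1 and Ier3 are immediate early genes. Growth factors, serum and stress switch them on within minutes through MAP kinases and serum response factor, without new protein synthesis, and their transcripts are short-lived. Fosl1 (Fra-1) and Fosl2 (Fra-2) are slower members of the Fos family, which lack the strong activation domain of Fos, and Jund is the most steadily expressed Jun protein. In fibroblasts AP-1 is known to hold somatic enhancers open, and its loss accompanies the closing of those enhancers during reprogramming.

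The cells were OG2 transgenic mouse embryonic fibroblasts at passage P2, of mixed 129SVJ, C57B6 and CBA background, whose transgene reports on the Oct4 gene. OSK cells received Oct4, Sox2 and Klf4, and were sampled on days 0, 1, 3, 5 and 7. OvSvK cells received Klf4 with Oct4 and Sox2 that carried VP16, the activation domain of a herpes virus protein, and were sampled on days 0 to 4. GFP cells, sampled on days 1, 3, 5 and 7, were the control without factors. OSK cells were also grown without bFGF (basic fibroblast growth factor), without vitamin C, or without the GSK3 inhibitors CHIR-99021 and LiCl, each sampled on days 3 and 7. In all 20 samples days were counted after 2 days of transfection, so day 0 cells already carried the factors, and no day 0 sample of GFP was analysed here. Embryonic stem cells (mESC) and embryonic fibroblasts (MEF), labelled as a re-analysis, served only as reference values. The labels do not give the delivery method or the number of embryos behind a culture. Every arm and day was 1 library (n = 1), so no value has a replicate error: errors below are the variation of a difference between days, or the departure from a line over days. P-values therefore do not measure the spread between replicate cultures.

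Promoter sequence is shown for Fos, Jun and Atf3, because these hold the elements by which AP-1 and CREB/ATF proteins are known to act on AP-1 genes themselves. The 120 bases that end 1 base before the RefSeq start (GRCm38.p6, the same build as mm10) are given 5′ to 3′ on the gene's strand. Capitals mark the TGACGT core of cAMP response elements, its reverse complement ACGTCA, the TGACATCA element of the Jun promoter, and TATAAA.
Fos, chr12:85473770-85473889, plus strand: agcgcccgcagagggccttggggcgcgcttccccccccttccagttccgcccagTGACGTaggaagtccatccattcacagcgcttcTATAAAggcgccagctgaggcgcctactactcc
Jun, chr4:95052223-95052342, minus strand: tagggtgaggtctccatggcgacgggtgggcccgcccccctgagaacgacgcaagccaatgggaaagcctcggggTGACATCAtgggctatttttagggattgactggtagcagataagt
Atf3, chr1:191183334-191183453, minus strand: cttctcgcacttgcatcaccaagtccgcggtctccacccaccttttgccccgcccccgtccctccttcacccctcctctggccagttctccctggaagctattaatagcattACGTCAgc
Counted from the start, TGACGT lay at -66 to -61 and TATAAA at -33 to -28 in Fos, TGACATCA at -45 to -38 in Jun, and ACGTCA at -8 to -3 in Atf3. The RefSeq start used for Atf3 lies inside the longer gene of the count annotation (chromosome 1, 191170296 to 191218039). The window of Fosl2 (32136222 to 32136471) also lay inside its counted gene. That of Jund ended at 70697738, before its counted gene begins at 70698949. RefSeq promoters were matched for 8 of the 10 genes, not for Egr1 and Fosl1, and the 250 bases before each start were searched on both strands. Over 27025 promoters of that length, TGACGT occurred in 6.56% (TGACGTCA, which contains it, in 1.62%), TGACATCA in 3.02% and TATAAA in 12.97%. TGANTCA occurred in 6.87% and the CArG box of serum response factor in 1.4%, and neither was found in the windows of the 8 genes. Bases farther upstream were not searched, so this does not show that these genes lack such elements. A match is a description of the letters, not of binding.

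Library totals ran from 7872277 to 20720718 expected counts. The libraries formed 2 sets by the share of the pseudogene Rpsa-ps10 among the counts of it and its parent Rpsa. That share was 3.32% to 7.78% in OSK days 1 to 7 and GFP (8 libraries) and 0.124% to 0.476% in OvSvK, OSK day 0 and the omissions (12 libraries). OSK against GFP, day 1 against day 0 in OvSvK, and the omissions among themselves lay within a set. The step from day 0 to day 1 of OSK, the fit of day 0 against later days, the OSK slope and its difference from the GFP slope, the OvSvK to OSK comparison on days 1 and 3, and omissions compared to OSK span both sets, and there the set cannot be told apart from the arm or day. OSK day 0 also stood apart in GC content: genes in the lowest and highest of 5 GC groups deviated by -1.79 and 1.22 (log2) from the other libraries. GFP day 1 came next, at -0.9999 and 0.39. The 10 genes are GC-rich, from 51.5% (Atf3) to 67.1% (Jund). Values in TPM and CPM are not corrected for GC content unless stated, and several results that include OSK day 0 are also given after a fitted trend over GC content was removed. Summed fibroblast markers lay at 20130 to 33590 CPM in GFP and at 3141 to 19580 CPM in OSK days 1 to 7. Summed pluripotency markers lay at 0.825 to 1.97 CPM in GFP and at 7.995 to 1007 CPM in OSK days 1 to 7. In such bulk samples fewer cells of a type and less RNA per cell cannot be told apart.

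The make-up of the Fos family differed between the arms: by day 7 of OSK Fos and Fosl2 made up nearly all of it, Fosl1 led on every day after day 0 of OvSvK, and Fos was a minor part in GFP. Members were compared in TPM, which corrects for transcript length. In OSK the 4 Fos genes summed to 224 TPM on day 0, then 120, 67.2, 49.8 and 38.1 TPM on days 1, 3, 5 and 7. Fos made up 9.15% of that sum on day 0, then 21.9%, 42.0%, 36.3% and 42.8%. The sum thus became smaller on each later day of OSK while the share of Fos was higher on all later days than on day 0. Fosl1 went from 36.3% on day 0 to 5.22% on day 7, and Fosl2 stayed between 38.9% and 51.5%. In GFP the sum was 144, 165, 90.9 and 89.5 TPM on days 1, 3, 5 and 7, of which Fos held 1.29%, 4.20%, 4.77% and 5.88%. Fosl2 held 49.0% to 86.6% of it there, so Fosl2 was the leading Fos family transcript of GFP cells on days 3, 5 and 7, and stood level with Fosl1 on day 1 (70.8 and 70.9 TPM). In OvSvK the sum was 168 TPM on day 0, then 81.6, 82.2, 51.4 and 40.5 TPM, and Fosl1 held 51.2%, 59.5%, 56.2% and 47.6% of it on days 1 to 4. Fosl2 there went from 54.5% on day 0 to 17.8% to 34.5% on the later days. In the 6 omission libraries Fos held 33.7% to 59.9%. Fosb held at most 5.16% of the family in any library.

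Jun family transcripts were highest on day 0 within both the OSK and the OvSvK course, and Junb led there. In OSK the 3 Jun genes summed to 613 TPM on day 0, then 104, 126, 129 and 146 TPM. In OvSvK they summed to 260 TPM on day 0, then 129, 142, 163 and 157 TPM. GFP gave 135, 111, 92.1 and 108 TPM, below the range of the omissions (193 to 280 TPM). Junb held 57.2% of the Jun sum on day 0 of OSK and 43.9% on day 0 of OvSvK. Jund held 58.4% on day 7 of OSK, where Jun and Junb stood at 37.5 and 23.2 TPM and Jund at 85.2 TPM. Jun was the highest of the 3 in GFP on all 4 days, at 45.3 to 69.4 TPM.

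**Figure D1:**
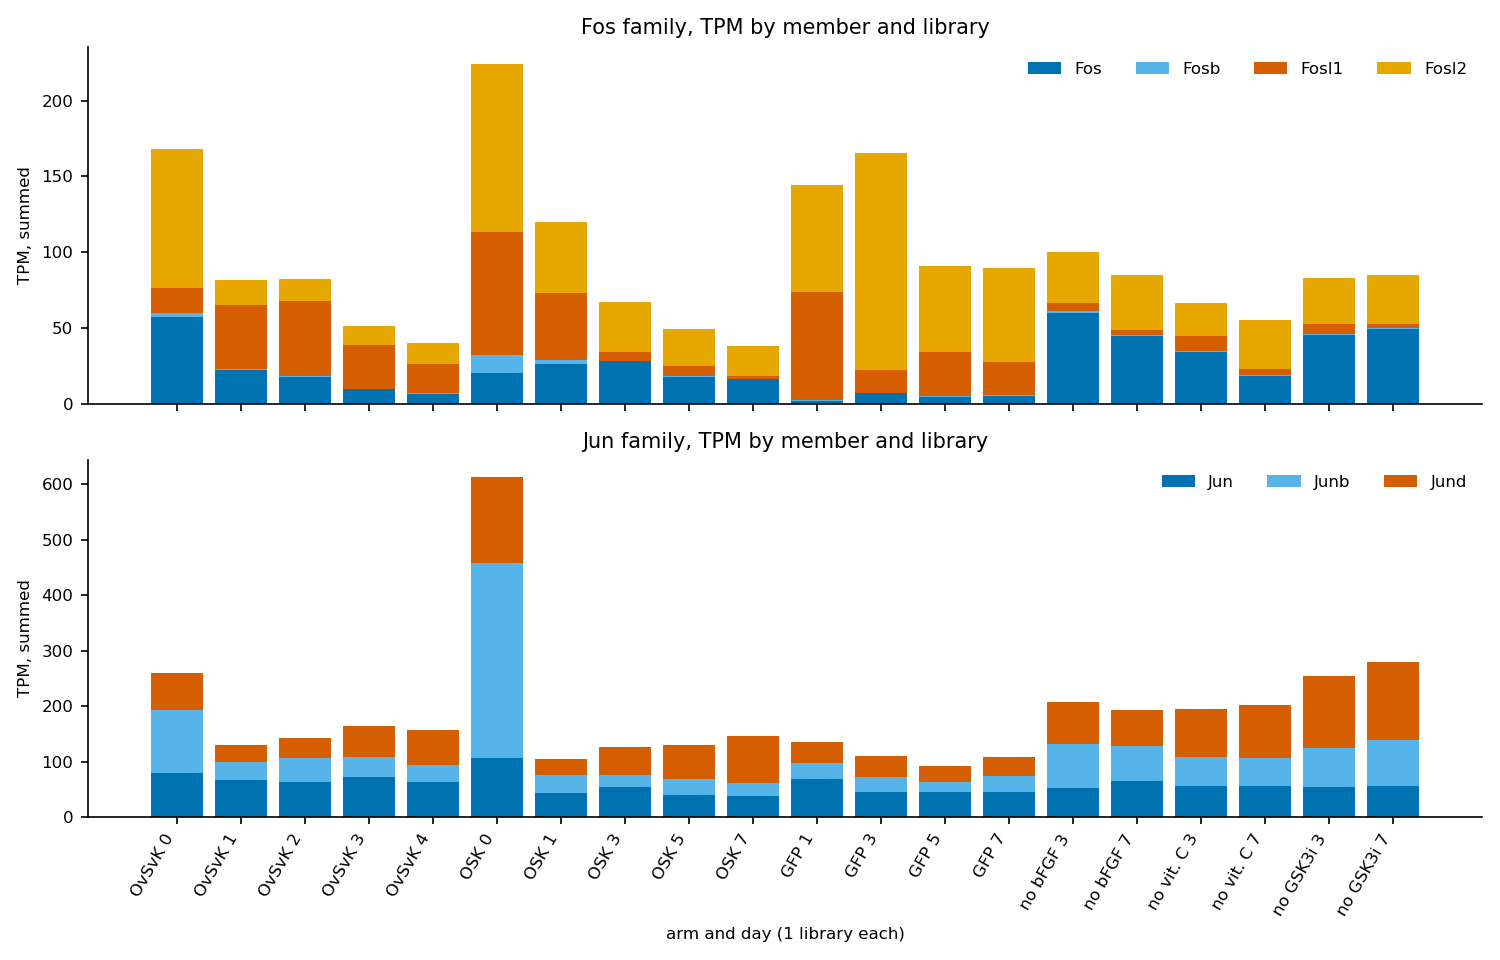
Stacked bars give the TPM of each Fos family gene (upper panel) and Jun family gene (lower panel) in the 20 libraries, with arm and day on the horizontal axis and no error because each bar is 1 library. Day 0 of OSK is the highest bar of both panels, at 224 and 613 TPM, which are not corrected for GC content. With the GC trend removed OSK day 0 went from 488 to 174.5 CPM for Junb, 342 to 122.5 for Jund and 236 to 125 for Jun. It went from 501 to 345 CPM for Fosl2 and from 105 to 44.0 for Fosl1. Family sums on that scale are not given.

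Levels of each gene by arm are given next in CPM (counts scaled to the library total times its TMM factor), a scale on which a gene is compared only with itself. The ratio of the highest to the lowest of the 20 libraries was 110.5 for Fosb, 75.3 for Fosl1, 58.6 for Atf3, 52.1 for Egr1, 35.5 for Junb, 29.0 for Fos, 18.9 for Fosl2, 11.8 for Ier3, 9.5 for Jund and 4.75 for Jun. For all but Fos the highest library was OSK day 0. Fos was highest on day 0 of OvSvK. These ratios and ranks are uncorrected. With the GC trend removed OSK day 0 stood at 17.4 CPM for Fos, 16.9 for Fosb, 44.0 for Fosl1, 345 for Fosl2, 125 for Jun, 174.5 for Junb, 122.5 for Jund, 42.6 for Atf3, 263 for Egr1 and 80.4 for Ier3. On that scale it was the highest library for Fosb, Junb, Atf3 and Ier3 only. Fosl1 was then highest on day 1 of GFP (47.7 CPM), Fosl2 on day 3 of GFP (374 CPM), Jund on day 7 without GSK3 inhibitors (128 CPM), and Fos, Jun and Egr1 on day 0 of OvSvK (58.5, 128 and 427 CPM).

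Fos (mm10 chromosome 12, 85473890 to 85477273) encodes the founding activator of the family. In OSK its level was 32.8, 24.7, 21.9, 14.6 and 13.96 CPM on days 0, 1, 3, 5 and 7, and in GFP 2.01, 5.19, 4.05 and 4.90 CPM on days 1, 3, 5 and 7. In OvSvK it stood at 58.3, 17.3, 13.4, 7.23 and 4.70 CPM on days 0 to 4, so its last day lay within the GFP range. On days 3 and 7 it stood at 54.9 and 35.6 CPM without bFGF, at 27.4 and 12.8 CPM without vitamin C, and at 34.2 and 36.1 CPM without GSK3 inhibitors. Fosb (chromosome 7, 19302696 to 19310051), the other strong activator, was a rare transcript outside day 0. It stood at 33.4, 4.28, 0.628, 0.611 and 0.302 CPM in OSK, the last being 5 counts (95% Poisson interval 0.0981 to 0.705 CPM). In OvSvK it stood at 5.46, 1.67, 1.66, 0.556 and 1.15 CPM, and in GFP at 1.76, 0.943, 1.11 and 0.788 CPM. Its 6 omission libraries lay between 0.709 and 1.63 CPM.

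Fosl1 (chromosome 19, 5447547 to 5455946), known as a marker of mesenchymal and migrating cells, stood at 105, 33.6, 3.45, 4.67 and 1.39 CPM in OSK. In OvSvK it stood at 13.7, 29.8, 31.9, 17.4 and 11.4 CPM, and in GFP at 61.6, 10.9, 21.9 and 16.4 CPM. It was the only one of the 10 genes whose OvSvK level was higher on day 1 than on day 0. The omissions lay between 1.54 and 6.33 CPM, near OSK of days 3 to 7. Its exons overlap Ccdc85b on the opposite strand, which itself stood at 33.2 CPM on day 0 of OSK and at 1.36 to 8.92 CPM elsewhere. Fosl2 (chromosome 5, 32135801 to 32157842) stood at 501, 124, 73.5, 57.8 and 48.2 CPM in OSK, at 271.5, 41.3, 33.9, 26.5 and 28.9 CPM in OvSvK, and at 216, 372, 150 and 163 CPM in GFP. All later days of both factor arms lay below every GFP library, and the omissions (50.0 to 89.0 CPM) did too.

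Jun (chromosome 4, 95049034 to 95052222), the main partner of Fos proteins and its own activator through the element printed above, varied least. It stood at 236, 62.3, 63.9, 50.7 and 49.7 CPM in OSK and at 128, 91.2, 78.4, 80.8 and 70.0 CPM in OvSvK. GFP gave 114, 63.8, 64.6 and 64.5 CPM, and the omissions 63.9 to 81.2 CPM. OSK days 1 to 7 thus lay below all OvSvK days, and the GFP range overlapped both. Junb (chromosome 8, 84974484 to 84978718), known to temper Jun in growing cells, stood at 488, 26.4, 15.4, 20.8 and 17.6 CPM in OSK and at 104, 25.0, 31.3, 24.1 and 20.03 CPM in OvSvK. GFP gave 25.8, 20.9, 13.8 and 23.0 CPM. On days 3 and 7 Junb stood at 62.6 and 43.9 CPM without bFGF, at 35.7 and 33.0 CPM without vitamin C and at 51.3 and 56.2 CPM without GSK3 inhibitors, all above OSK of days 1 to 7.

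Jund (chromosome 8, 70698949 to 70700616), which is known to restrain growth, was the member whose OSK level was higher on each later day after day 1. It stood at 342, 36.0, 54.9, 70.4 and 102 CPM in OSK, at 95.8, 36.0, 38.9, 56.8 and 63.0 CPM in OvSvK, and at 56.5, 49.6, 38.3 and 44.5 CPM in GFP. Without GSK3 inhibitors it stood at 145 and 154 CPM, above the other omissions (71.7 to 96.9 CPM). Exons of Jun, Junb and Jund overlap Junos, Prdx2 and Gm11175 on the opposite strand, and whether counting used strand is not given in the sources used here. Prdx2 stood at 973 CPM on day 0 of OSK and at 263 to 445 CPM elsewhere, while Junos never passed 2.14 CPM.

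Atf3, a stress-induced repressor and partner of Jun proteins, stood at 55, 5.74, 2.09, 2.11 and 1.63 CPM in OSK and at 15.4, 1.96, 3.11, 1.88 and 3.71 CPM in OvSvK. GFP gave 7.79, 5.42, 2.70 and 3.77 CPM, and the omissions 0.938 to 3.81 CPM. Egr1 (chromosome 18, 34859823 to 34864984), a zinc finger factor induced by ERK signalling, stood at 497, 81.8, 24.2, 11.3 and 37.7 CPM in OSK and at 426, 64.2, 77.6, 32.2 and 16.7 CPM in OvSvK. GFP gave 9.55, 22.6, 13.4 and 15.0 CPM. On days 3 and 7 Egr1 stood at 204 and 110.5 CPM without bFGF, the highest of any library outside day 0, against 46.2 and 57.2 CPM without vitamin C and 18.2 and 58.8 CPM without GSK3 inhibitors. Ier3 (chromosome 17, 35821684 to 35822923), a small regulator of ERK and survival signals, stood at 140, 16.9, 16.7, 22.2 and 21.5 CPM in OSK. In OvSvK it stood at 64.9, 24.0, 21.8, 16.3 and 11.9 CPM, in GFP at 36.2, 19.1, 17.6 and 22.4 CPM, and in the omissions at 21.6 to 40.2 CPM.

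**Figure D2:**
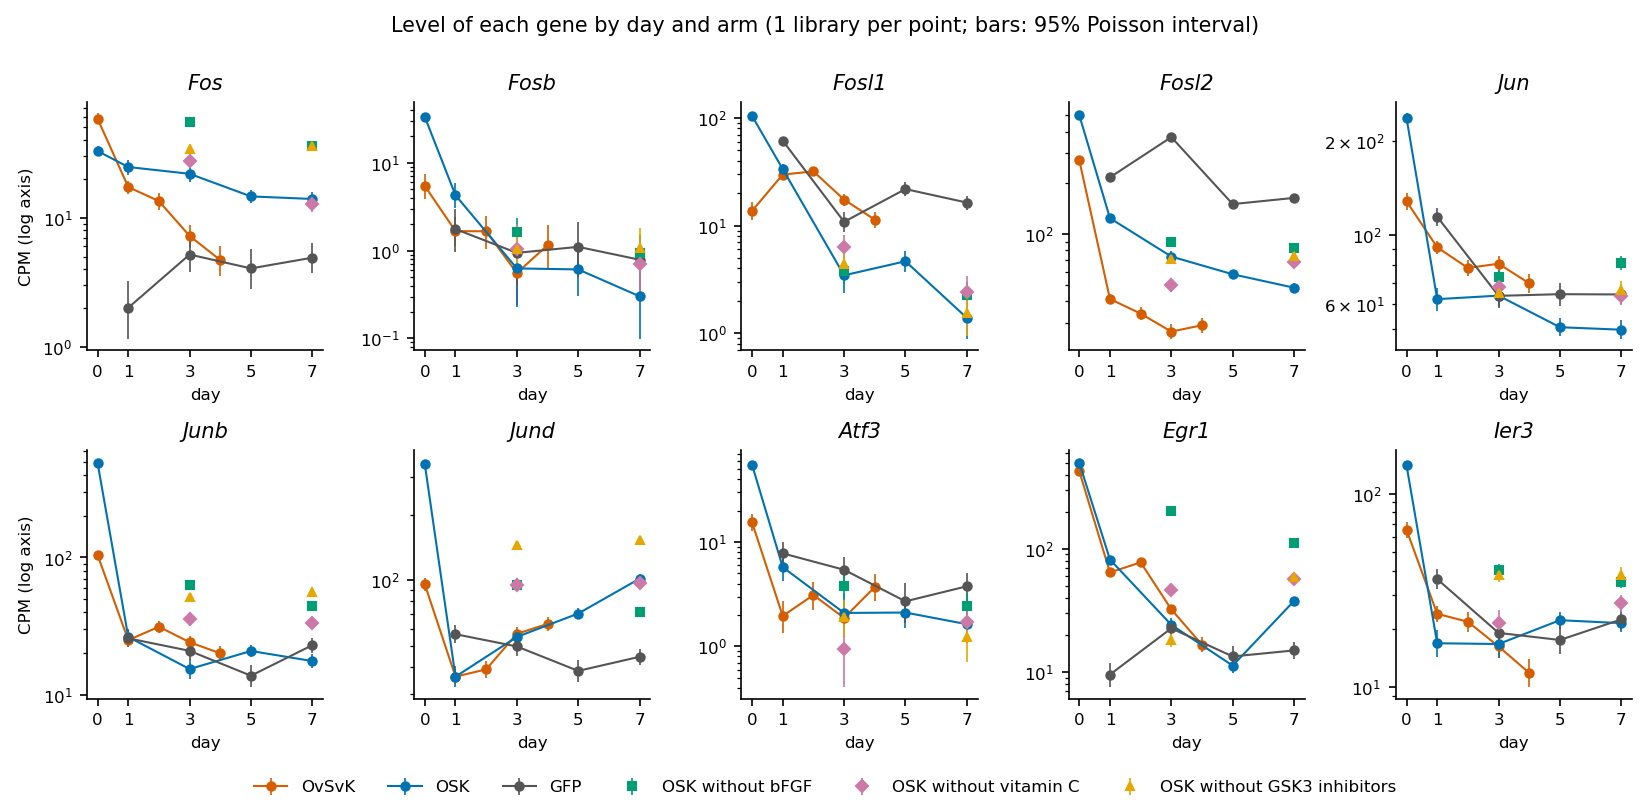
Each panel gives 1 gene, with day on the horizontal axis and CPM on a log axis. Every point is 1 library, bars are 95% Poisson intervals of its count (counting error only), and colours give the arm: day 0 of OSK and OvSvK lies above the later days of the same arm for every gene except Fosl1 in OvSvK. The CPM shown are uncorrected: with the GC trend removed Fos of OSK was lower on day 0 (17.4 CPM) than on days 1 and 3 (21.8 and 24.3 CPM).

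The first days of both factor arms were compared to ask which of these genes were high when day counting began. In the fit of day 0 against all later days of OSK and OvSvK (10 libraries), 9 of the 10 genes were higher on day 0, against 22% of all 13398 genes tested (edgeR quasi-likelihood test, Benjamini-Hochberg adjustment over all genes). Junb was 12.4-fold higher (log2 difference 3.63, SE 0.42, adjusted p = 0.000632) and Fosl2 7.33-fold (2.87, SE 0.29, adjusted p = 0.000414). Atf3 was 11.5-fold higher (3.52, SE 0.48, adjusted p = 0.00146) and Egr1 10.7-fold (3.42, SE 0.57, adjusted p = 0.00322). Fosb was 12.2-fold higher on average, but its 2 day 0 libraries differed (33.4 CPM in OSK, 5.46 CPM in OvSvK). Ier3 (5.15-fold, adjusted p = 0.000582), Fos (3.37-fold, 0.0154), Jund (3.36-fold, 0.00834) and Jun (2.70-fold, 0.00451) were higher as well. Fosl1 did not pass (log2 difference 2.05, SE 1.099, adjusted p = 0.147), its OvSvK level being lower on day 0 than on days 1 to 3.

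The calls rest in part on OSK day 0. With the GC trend removed 7 of the 10 passed, against 18.1% of all genes, and Fos (adjusted p = 0.0783), Jund and Fosl1 did not. Without OSK day 0, 4 passed, against 2.67% of all genes, namely Fosl2 (3.06 on the log2 scale), Fos (2.46), Junb (2.06) and Ier3 (1.82). These 4 also passed when both changes were made, a combination chosen after seeing the data. On this fit Egr1 had a log2 difference of 3.17 (adjusted p = 0.0738) and Atf3 of 2.53 (adjusted p = 0.0655) without OSK day 0. Without OSK day 1 all 10 passed. Over the libraries left out in turn 478 to 6980 genes passed in either direction, so this count alone is not particular to the members. Without OvSvK day 0, Fosl1 passed and Fos did not (0.77, adjusted p = 0.297).

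From day 0 to day 1 within an arm there is 1 library on each side and no test. In OSK 9 of the 10 genes were at least 2-fold lower on day 1, against 22.7% of genes with at least 5 CPM. With the GC trend removed it was 8, against 14.1%. Junb differed most (log2 ratio -4.20, and -2.71 with the trend removed), followed by Jund (-3.24 and -1.75), Atf3 (-3.22 and -3.04) and Ier3 (-3.04 and -2.40). Fos differed least, at -0.41 in CPM, 0.33 with the trend removed and 0.36 in deposited TPM. In OvSvK, whose libraries lie in 1 set, 8 of the 10 were at least 2-fold lower, against 10.5% of genes, and again 8 with the trend removed, against 11.3%. Atf3 (-2.88), Egr1 (-2.73), Fosl2 (-2.71) and Junb (-2.06) differed most there. Fos stood at -1.75, Ier3 at -1.43 and Jund at -1.41. Jun stood at -0.49 and Fosl1 at 1.11, with a 95% counting interval of 0.81 to 1.44.

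**Figure D3:**
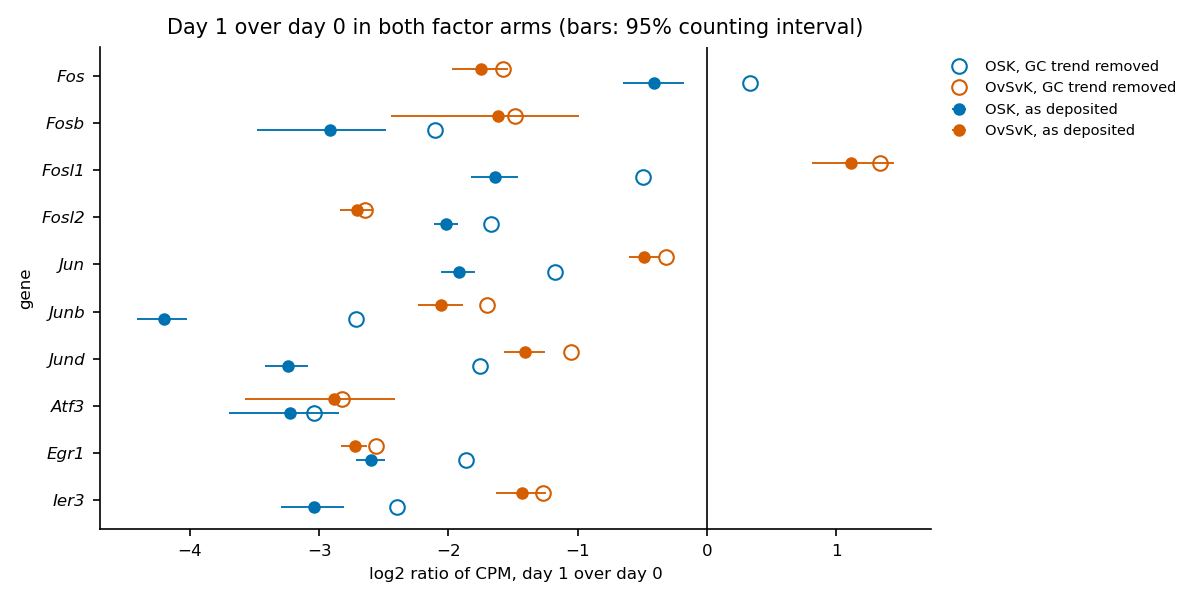
The horizontal axis gives the log2 ratio of CPM on day 1 over day 0 for each gene, with filled points for deposited counts, bars for 95% counting intervals and open points after removal of the GC trend. Blue is OSK and orange OvSvK, 1 library on each side: Fosl1 lies at -1.64 in OSK and 1.11 in OvSvK, and Egr1 at -2.60 and -2.73.

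Genes of the wider immediate early response were higher on day 0 as well. Of 40 tested genes of the list of other immediate early genes 26 were higher on day 0 and 0 lower, with a median log2 difference of 1.80 against -0.08 over all genes, of which 22% were higher and 22.1% lower. They included the RNA decay factor Zfp36 (2.66, adjusted p = 0.000179), the nuclear receptor Nr4a1 (4.28, adjusted p = 0.000347), the MAP kinase phosphatase Dusp1 (3.70, adjusted p = 0.000414) and the matricellular gene Ctgf (4.34, adjusted p = 0.000542). Without OSK day 0, 12 were higher and 0 lower. Other leucine zipper partners of AP-1 had 9 of 15 tested genes higher and 2 lower, among them Atf5 (2.78), Jdp2 (2.77) and Cebpb (2.77). Without OSK day 0 it was 3 and 0. Of 20 kinase and serum response genes 4 were higher, such as Mapk3 (ERK1, 1.45) and the actin-responsive cofactor Mkl1 (2.44), and 5 lower, such as Rps6ka3 (-1.94), shares near those of all genes. Of 23 AP-1 target genes 9 were higher and 5 lower, such as the matrix proteases Mmp3 (-5.35) and Mmp10 (-4.29), and without OSK day 0 it was 0 and 3. Of 11 genes of dissociation and heat stress 7 were higher, such as Chac1 (2.95) and Hspa1b (1.76), and 2 lower, and without OSK day 0 it was 1 and 0. Summed fibroblast markers were also higher on day 0, at 39550 CPM in OSK and 25140 CPM in OvSvK against 3141 to 19580 and 4722 to 12060 CPM later. Macrophage markers summed to 299 and 106 CPM on day 0, and skeletal muscle markers to 237 and 136 CPM. Of 5 tested macrophage markers 4 were higher on day 0 and 0 lower. Over the 20 libraries Lyz2 reached 120 CPM, Itgam 111, Cd68 22.4, Csf1r 19.6, Cd14 18.6, Tyrobp 6.30, Adgre1 5.23, Fcer1g 3.72, Ptprc 0.94 and Aif1 0.61 CPM. Of 3 tested muscle markers 2 were higher on day 0 and 0 lower. Acta1 reached 124.5 CPM, Des 112 and Myh3 7.75 CPM, while Myod1 was at 0 counts in 19 libraries and Myog in 17. The part of these cells in the day 0 levels was not tested.

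What the factors added to transfection was asked by setting OSK beside GFP on days 1, 3, 5 and 7. Within the Fos family the direction differed by member: Fos was higher in OSK and Fosl1 and Fosl2 were lower. Fos was 4.62-fold higher (log2 difference 2.21, SE 0.39, adjusted p = 0.0122), with 13.96 to 24.7 CPM in OSK and 2.01 to 5.19 CPM in GFP, so the arms did not overlap. Its daily log2 ratio was 3.52 on day 1, then 2.04, 1.81 and 1.48. Fosl2 was 2.97-fold lower (-1.57, SE 0.27, adjusted p = 0.0120), again without overlap. Fosl1 was 4.08-fold lower (-2.03, SE 0.45, adjusted p = 0.0240), with daily log2 ratios of -0.87, -1.61, -2.19 and -3.42. Its arms overlapped, because OSK day 1 lay above GFP of days 3 to 7, although OSK was the lower arm on each day. Thus 1 of 9 tested members was higher, against 16.8% of all 12680 genes, and 2 were lower, against 14%. Fosb was too low to be tested.

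The other members did not pass. Egr1 had a log2 difference of 1.03 (SE 0.59, adjusted p = 0.236) and was farthest apart on day 1, with daily log2 ratios of 3.08, 0.09, -0.24 and 1.32. Atf3 had -0.84 (SE 0.31, adjusted p = 0.0873) and was lower in OSK on all 4 days. Jund had 0.40 (adjusted p = 0.399), with daily ratios of -0.65, 0.15, 0.87 and 1.19. Jun (-0.40, adjusted p = 0.153), Ier3 (-0.25, 0.507) and Junb (-0.05, 0.872) differed least. The calls of Fos, Fosl1 and Fosl2 also held with DESeq2, with no filter, with other size factors, with the GC trend removed and on TPM with limma. They were lost when OSK day 3, OSK day 5 or GFP day 5 was left out, and only Fosl2 passed without GFP day 3. Over all libraries left out in turn the log2 difference lay between 1.78 and 2.46 for Fos (adjusted p up to 0.0647), between -1.85 and -1.31 for Fosl2 (up to 0.0646), and between -2.48 and -1.57 for Fosl1 (up to 0.115).

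**Figure D4:**
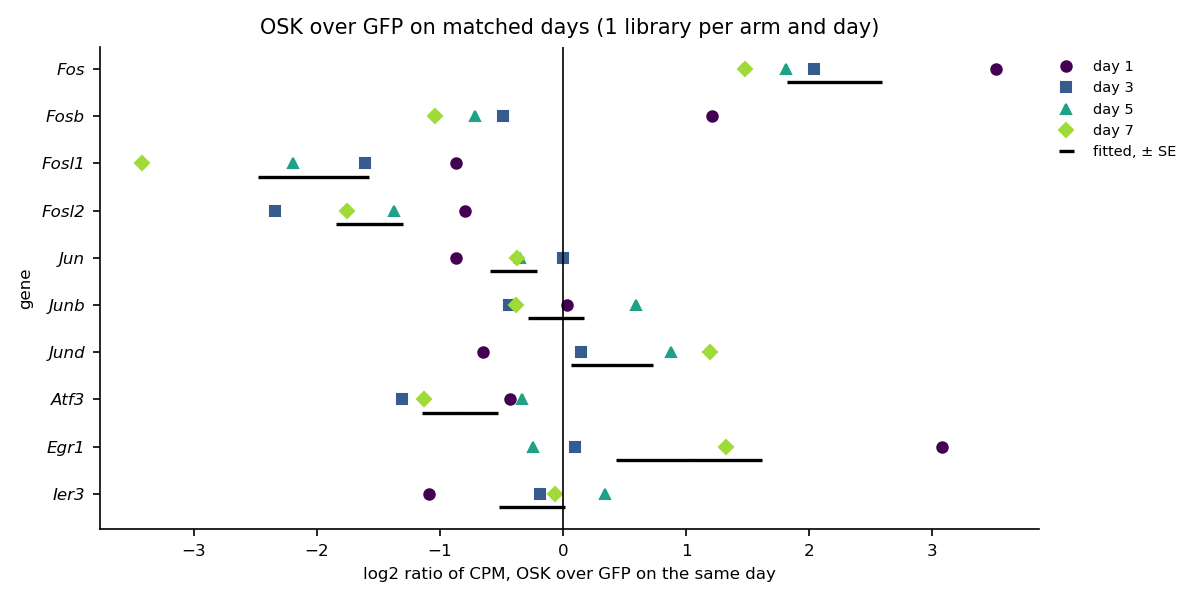
Points give the log2 ratio of CPM of OSK over GFP on days 1, 3, 5 and 7 for each gene, 1 library per arm and day, and black bars the fitted difference ± SE. Fos lies right of 0 and Fosl1 and Fosl2 left of 0 on all 4 days.

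Of 23 tested AP-1 target genes 15 were lower in OSK than in GFP and 0 higher, with a median log2 difference of -1.61 against 0.05 over all genes. The matrix proteases Mmp3 (-5.78, adjusted p = 0.00264) and Mmp10 (-3.20, adjusted p = 0.00459) and the cell cycle inhibitor Cdkn2a (-1.85, adjusted p = 0.00364) were among the lower ones. The count was 14 with the GC trend removed, 4 without GFP day 5 and 17 without GFP day 1. Over the libraries left out in turn 934 to 5991 of all genes passed in either direction. Among other leucine zipper genes 3 of 16 were higher, such as Cebpd (3.54) and Creb1 (1.21), and 5 lower, such as Cebpb (-2.64). Of 37 other immediate early genes 7 were higher, such as Nr4a1 (2.69), and 6 lower, such as Ier5l (-4.07), Errfi1 (-1.62) and Ier5 (-1.60), shares near the 16.8% and 14% of all genes. Of 19 kinase and serum response genes 4 were higher, such as Fbxw7 (1.27), a ubiquitin ligase subunit that recognises Jun, and 2 lower, Mkl1 (-1.42) and Mkl2 (-1.15). Of 11 stress genes 1 was higher, Hsp90aa1 (1.18), and 2 lower, Hspa1b (-2.65) and Hspa1a (-1.86). Of 10 fibroblast markers 6 were lower in OSK and 0 higher, and 2 of 4 tested macrophage markers were lower. Whether the share of fibroblasts set these differences was not tested.

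Changes over days were fitted as a line per arm in 14 libraries. In OSK 9 of the 10 genes fell, against 24% of all 13848 genes. With the GC trend removed 7 fell, Fos (-0.06, adjusted p = 0.554) and Ier3 (-0.19, adjusted p = 0.118) no longer passing. With limma on log2(TPM + 1) 6 fell, Junb (adjusted p = 0.0526) not passing either. Fosb fell by 0.99 on the log2 scale per day (SE 0.15, adjusted p = 0.00116) and Fosl1 fell by 0.86 (SE 0.14, adjusted p = 0.00145), the steepest of the members. Atf3 (-0.69), Junb (-0.63), Egr1 (-0.52), Fosl2 (-0.45), Ier3 (-0.33), Jun (-0.28) and Fos (-0.18, adjusted p = 0.0395) fell less steeply, and Jund did not pass (-0.20, adjusted p = 0.196). Without OSK day 0 only Fosb (-0.63) and Fosl1 (-0.71) passed, against 11.5% of genes, and Ier3 then had a slope of 0.0655. Fos also missed the threshold when OSK day 1, 5 or 7, OvSvK day 2 or 3, or GFP day 5 or 7 was left out (adjusted p up to 0.189), and Ier3 without OSK day 5 or OvSvK day 3. Jund had 0.23 per day without OSK day 0 (adjusted p = 0.0885).

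In OvSvK Fos (-0.86, SE 0.12, adjusted p = 0.00178), Egr1 (-1.08, SE 0.30, adjusted p = 0.0414) and Fosl2 (-0.76, SE 0.20, adjusted p = 0.0344) fell, 3 of 10 against 5.81% of genes. Without OvSvK day 0 no member passed, without OvSvK day 2, 3 or 4 or GFP day 7 only Fos did, and 5 did without OSK day 0. Over the libraries left out in turn 189 to 2651 genes passed in either direction for this slope. In GFP 0 of 10 passed, against 4.8% of genes, of which 3540 had an unadjusted p below 0.05, and DESeq2 called 0 members too. The slopes of OSK and GFP were also set against each other. For this difference 0 of 10 members passed, against 6.22% of genes (2988 at an unadjusted p below 0.05). The closest were Fosb (-0.82 per day, adjusted p = 0.0863), Fos (-0.33, 0.119) and Fosl1 (-0.58, 0.120), and DESeq2 called Fosb alone. Fos passed without GFP day 3 and Egr1 without OSK day 7. The OSK line ran over days 0 to 7 and the GFP line over days 1 to 7, so their spans differed. Without OSK day 0, which leaves days 1 to 7 in both arms, no member passed either. So a fall in OSK beyond that in GFP was not shown for these genes.

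What the VP16 fusions changed was asked on days 0, 1 and 3, which OvSvK and OSK share. No member passed, and 0.0% of 12910 genes did (edgeR, with 2991 at an unadjusted p below 0.05 and 2 residual degrees of freedom). DESeq2 called 1778 genes, with Fosl2 the 1 member among them (-1.28). In the edgeR fit Fosl2 came closest (log2 difference -1.30, SE 0.30, adjusted p = 0.0718), then Fosb (-1.57, SE 0.57, adjusted p = 0.162) and Atf3 (-1.24, SE 0.46, adjusted p = 0.169). Fosl2 passed without either day 0 library (-1.51). Fosb, Fosl1 and Atf3 passed without either day 3 library, where the comparison rests on days 0 and 1. Over the libraries left out in turn 17 to 1802 of all genes passed in either direction. Such a pass is thus not by itself particular to the members. The other 7 members had log2 differences of -0.57 (Jund), -0.52 (Junb), -0.41 (Fos), -0.27 (Fosl1), -0.21 (Ier3), -0.04 (Egr1) and 0.02 (Jun), with adjusted p from 0.489 to 0.9803. This fit includes OSK day 0, which stood apart in GC content. With the GC trend removed these 7 had -0.19 (Jund), -0.15 (Junb), 0.04 (Fos), 0.12 (Fosl1), 0.16 (Ier3), 0.40 (Egr1) and 0.45 (Jun). Fosl2 then had -0.98 (adjusted p = 0.0922), Fosb -1.14 and Atf3 -0.996, and no member passed. On day 1 alone 2 of 9 members with enough counts were at least 2-fold lower in OvSvK, Fosl2 (-1.58) and Atf3 (-1.48), against 7.6% of genes, and 0 were 2-fold higher, against 15.9%. On day 3 Fos (-1.58) and Fosl2 (-1.46) were lower, 2 of 8 against 9.87%, and Fosl1 was higher (2.29), 1 of 8 against 11.9%. Fosl1 and Fos thus stood on opposite sides on day 3, with 17.4 CPM of Fosl1 in OvSvK against 3.45 CPM in OSK, and 7.23 CPM of Fos against 21.9 CPM. These pairs crossed the library sets.

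The omissions asked which medium additions acted on these genes. bFGF is a growth factor whose receptor drives ERK signalling, GSK3 is a kinase known to mark Jun and other factors for turnover, and vitamin C is a cofactor of oxygenases that remove methyl marks. Without bFGF 4 of 10 members were higher than in OSK on the same days, against 4.71% of 14191 genes. Egr1 was 5.43-fold higher (log2 difference 2.44, SE 0.55, adjusted p = 0.0313), with 204 and 110.5 CPM against 24.2 and 37.7 CPM. Junb was 3.17-fold higher (1.67, SE 0.24, adjusted p = 0.00551), Fos 2.50-fold (1.32, SE 0.28, adjusted p = 0.0157) and Ier3 1.96-fold (0.97, SE 0.23, adjusted p = 0.0228). None of these 4 overlapped the OSK days 3 and 7, but neither did Fosb, Fosl2, Jun and Atf3, so this does not set the 4 apart. Fosb had a larger log2 difference than Fos but did not pass (1.47, SE 0.59, adjusted p = 0.120). Atf3 (0.72, 0.323), Fosl2 (0.49, 0.223), Jun (0.43, 0.183) and Fosl1 (0.39, 0.528) did not pass either. Jund did not pass (0.11, adjusted p = 0.823), with 94.9 against 54.9 CPM on day 3 and 71.7 against 102 CPM on day 7, so its days lay on opposite sides of OSK.

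Without GSK3 inhibitors 4 of 10 were higher, against 9.97% of genes. Junb was 3.27-fold higher (1.71, SE 0.24, adjusted p = 0.00228), Fos 2.07-fold (1.05, SE 0.28, adjusted p = 0.0228), Ier3 2.01-fold (1.01, SE 0.23, adjusted p = 0.0123) and Jund 1.94-fold (0.96, SE 0.28, adjusted p = 0.0343). Egr1 did not pass (0.26, SE 0.53, adjusted p = 0.750), with 18.2 CPM on day 3 below and 58.8 CPM on day 7 above OSK. Fosb (1.27, adjusted p = 0.156), Fosl1 (0.28, 0.642), Fosl2 (0.26, 0.486), Jun (0.23, 0.447) and Atf3 (-0.23, 0.764) did not pass either. Without vitamin C 0 of 10 passed, against 0.296% of genes (edgeR, 1782 genes at an unadjusted p below 0.05). Junb came closest there (1.05, SE 0.24, adjusted p = 0.104), and DESeq2 called it among 296 genes. It also passed in edgeR without OSK day 3 (adjusted p = 0.0487). The other log2 differences were 0.97 (Fosb), 0.83 (Fosl1), 0.76 (Egr1), 0.36 (Ier3), 0.32 (Jund), 0.22 (Jun), 0.12 (Fos), -0.03 (Fosl2) and -0.40 (Atf3), with adjusted p from 0.420 to 0.975. The 3 comparisons share the OSK libraries and cross the library sets.

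The calls were sensitive to GC content and to single libraries. With the GC trend removed only Junb passed, both without bFGF (1.22, against 1.49% of genes) and without GSK3 inhibitors (1.13, against 3.46%). No member passed when day 3 without bFGF was left out, and Junb and Egr1 did when day 7 was. For GSK3 inhibitors no member passed without the day 7 omission library, and Fos and Junb did without that of day 3. Over the libraries left out in turn 9 to 3782 genes passed in either direction without bFGF and 5 to 4536 without GSK3 inhibitors. A lost call is thus not by itself particular to the members. Egr1 without bFGF also missed the threshold without OSK day 3, OSK day 7 or either vitamin C library (log2 difference 1.43 to 3.21 over the libraries left out, adjusted p up to 0.238), and without OSK day 3 Fosl2 and Jun passed. With no filter on low counts Egr1 without bFGF missed the threshold too (2.48, adjusted p = 0.113). For GSK3 inhibitors Fos missed it without OSK day 7 or either bFGF library (0.54 to 1.48, adjusted p up to 0.369), and Jund, with Fosl2 passing, without OSK day 3. Fibroblast markers moved too: 7 of 10 were higher without bFGF and 6 of 10 without GSK3 inhibitors, and 6 and 7 of 9 pluripotency markers were lower. Summed fibroblast markers were 9695 to 19560 CPM without bFGF, 9210 to 10900 CPM without GSK3 inhibitors and 5610 to 10500 CPM without vitamin C. Their part in the members' levels was not tested.

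Set against each other within 1 library set, in contrasts chosen after seeing the data, cells without bFGF had 2.31-fold more Fos than cells without vitamin C (1.205, SE 0.28, adjusted p = 0.0285), 1 of 10 members against 2.02% of genes. No member passed without either bFGF library or vitamin C day 7, or with the GC trend removed. Junb and Ier3 also passed without either OSK library, and Egr1 without either GSK3 library. Over the libraries left out in turn 0 to 2355 genes passed in either direction for this contrast. Egr1 did not pass (1.68, SE 0.53, adjusted p = 0.115). Between cells without bFGF and cells without GSK3 inhibitors 0 of 10 members passed, against 3.08% of genes (2437 at an unadjusted p below 0.05). Egr1 was higher without bFGF by 2.18 (SE 0.55, adjusted p = 0.0919), which DESeq2 called, and Jund lower (-0.85, SE 0.28, adjusted p = 0.138), which passed without either OSK library.

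**Figure D5:**
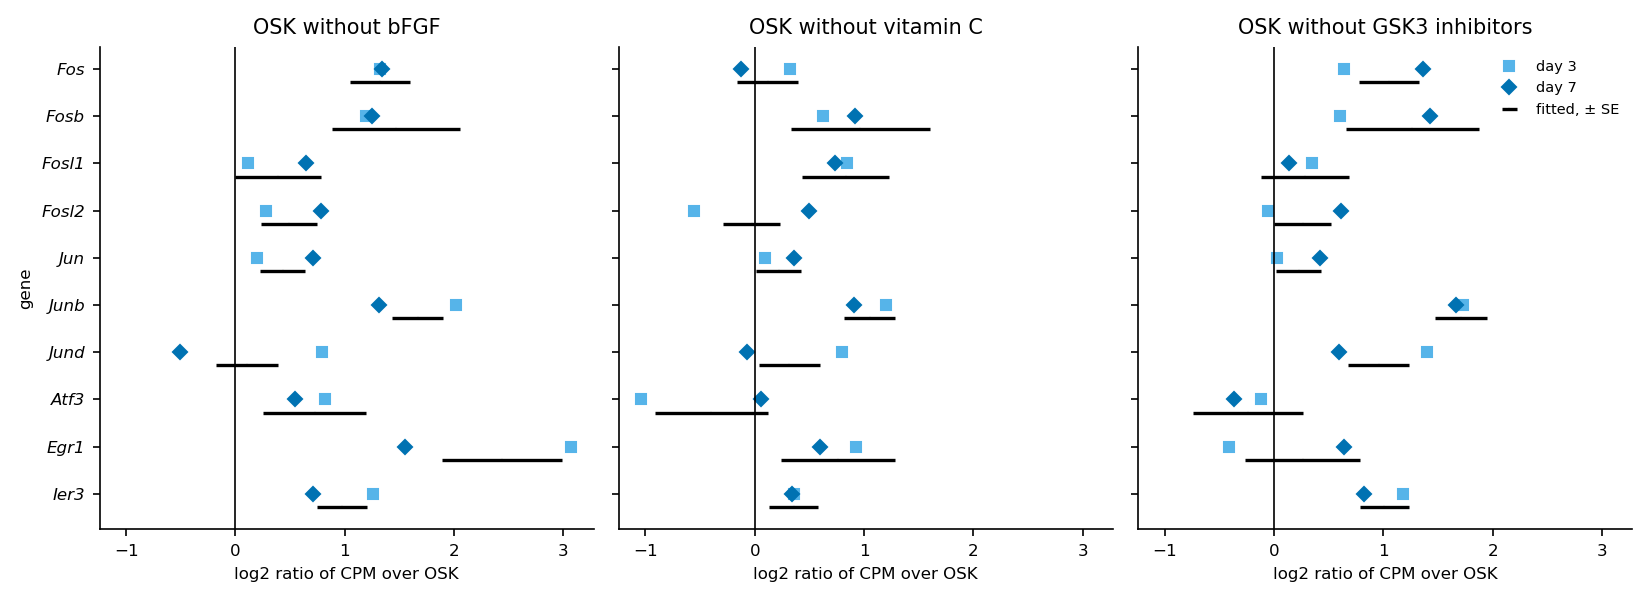
The 3 panels give, for OSK without bFGF, vitamin C or GSK3 inhibitors, the log2 ratio of CPM over OSK on day 3 (squares) and day 7 (diamonds), 1 library each, and the fitted difference ± SE (black). Egr1 lies at 3.07 and 1.55 without bFGF, and Junb lies right of 0 in all panels.

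Of all genes 4.71% were higher and 7.77% lower without bFGF, and 9.97% higher and 13.3% lower without GSK3 inhibitors, and the counts below stand beside these shares. They cross the library sets and are not corrected for GC content. With the GC trend removed 404 genes instead of 1771 passed in either direction without bFGF, and 977 instead of 3309 without GSK3 inhibitors. Other immediate early genes gave 6 of 39 higher and 1 lower without bFGF, with a median of 0.40 against 0.01 over all genes. They included Egr2 (3.75, adjusted p = 0.00939), Cyr61 (1.91, adjusted p = 0.0105) and Zfp36 (1.42, adjusted p = 0.00928), with Klf2 the lower one (-1.70, adjusted p = 0.0167). Without GSK3 inhibitors the same list gave 6 higher, such as Zfp36 (1.17), Gadd45b (1.29) and Per1 (1.04), and 3 lower, such as Ptgs2 (-1.44). AP-1 targets gave 1 of 23 higher without bFGF, a share near that of all genes, the collagenase Mmp13 (3.40, adjusted p = 0.000751), and 3 lower, Gja1 (-1.47), Spp1 (-1.48) and Cd44 (-0.82). Without GSK3 inhibitors they gave 5 higher, such as Mmp3 (2.09) and Ccl2 (1.01), and 3 lower, such as Gja1 (-1.52) and Ereg (-1.61). Of 16 other leucine zipper genes 5 were higher without GSK3 inhibitors, such as Cebpd (1.59) and Jdp2 (1.41), and 2 were lower, Creb1 (-1.79) and Atf2 (-1.04).

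The reference samples mESC (embryonic stem cells) and MEF (embryonic fibroblasts) are both labelled as a re-analysis. They were read only from the authors' deposited series table, on its score scale, with 1 sample each and another mapping build. Fosl2 stood at 3474 in MEF and 192 in mESC, and Fosl1 at 290 and 8. Fos went the other way, at 292 and 1018, and so did Fosb (79 and 400) and Jund (926 and 1773). Egr1 stood at 3498 and 3326, Jun at 1077 and 578, Junb at 586 and 477, Ier3 at 496 and 292, and Atf3 at 139 and 79.

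Genes with profiles most like 4 of the members were ranked by Pearson correlation of log2(CPM + 1) over the 20 libraries, which share depth, set and GC differences. For Fos these were Adamtsl1 (0.929), Fstl1 (0.926) and Lrpap1 (0.922), and the same 3 led over the 19 libraries without OSK day 0. For Fosl1 they were Fxyd5 (0.958), Smim3 (0.946) and Flt4 (0.940). For Egr1 they were Pdgfrl (0.892), Mmp17 (0.847) and Fam219a (0.843), and without OSK day 0 Pdgfrl (0.854), Edn1 (0.824) and Fam219a (0.798). For Jun they were Pcbp4 (0.927), Ntmt1 (0.920) and Rhbdd2 (0.913), and without OSK day 0 none of these led, Grb2 being highest (0.870). Among the members Junb and Ier3 were closest (0.928 over 20 libraries and 0.784 over the 18 without day 0). Fosl1 and Jund stood at -0.199 over all libraries and at -0.787 without day 0, and Fos and Fosl1 at -0.347 and -0.593.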

How the data were processed

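RNA of 20 libraries was sequenced from TruSeq total RNA preparations, per the labels' protocols. The authors estimated expression with RSEM 1.2.4 on mm10 (mESC and MEF: RSEM 1.1.21, mm9), per the submitters' processing notes. The deposited tables give expected counts and TPM per gene, per the file headers. The authors' deposited series table of 12897 genes is named CPM but holds whole numbers with 1 median (374) and 1 maximum (58542) in all columns, and was read as a score. Aligner and strandedness: not given in the sources used here. That table named 12897 gene identifiers and the reference named 10788 more.

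Expected counts were rounded and tested with edgeR 4.0.16 in R 4.3.3 (TMM, filterByExpr with the arm as group, robust quasi-likelihood, Benjamini-Hochberg over all genes, threshold 0.05), with day as a factor where arms were matched. Residual degrees of freedom were 3 (OSK against GFP), 2 (OvSvK against OSK), 7 (day 0), 8 (slopes) and 3 (omissions), with coefficients of biological variation of 0.322, 0.356, 0.412, 0.355 and 0.204. Alternatives were DESeq2 1.42.0 and its size factors, no filter, limma 3.58.1 on log2(TPM + 1), removal of a trend over 20 GC bins, and leaving out each library. Added after seeing the data were the GC correction without OSK day 0 and both contrasts among omissions. Ratios of 1 library to another used a prior count of 2 and needed 5 CPM in 1 of both. Intervals are 95% Poisson intervals and cover counting error only. Limits of 3 counts lay at 0.147 to 0.399 CPM. Tables and plots used matplotlib 3.10.9, pandas 2.3.3, scipy 1.17.1, numpy 2.4.6 and python 3.11.15.

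The members and the gene lists were chosen with earlier results of these data known. All 10 members are named in each comparison of arms with OSK, for day 0 and for the OSK slope, and elsewhere those that passed or came closest. From each other list up to 4 genes with the smallest p are named, apart from some that are not reported here. For Fos, Jun, Fosl1 and Egr1 the 3 most correlated genes with a mean of at least 5 CPM are named.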

Additional observations from a re-analysis of the deposited data

How the results depend on the processing

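Replicate cultures could not be paired, because every arm and day was 1 library: arms were matched by day instead, with day as a factor. Alternatives that moved a count by over 1.5 times are given here, and for each the cause was not tested. For OvSvK against OSK, 0 genes became 1778 with DESeq2, 1011 with no filter and 294 with the GC trend removed, and 0 members became 1 with DESeq2 and 1 with no filter. With the GC trend removed and without OSK day 0, day 0 had 776 genes and 4 members, and the OSK slope 2641 genes and 2 members. With DESeq2 and with the GC trend removed, the OvSvK slope had 2383 and 2188 genes, the GFP slope 2202 and 1000, and the slope difference 1782 and 1360 with 1 member each. The bFGF omission had 404 genes and 1 member with the GC trend removed and 1022 genes with limma. The vitamin C omission had 296 genes with DESeq2, 139 with no filter, 5 with the GC trend removed and 7 with limma, and 1 member with DESeq2 and 1 with no filter. The GSK3 omission had 977 genes and 1 member with the GC trend removed. For bFGF against vitamin C it was 99 genes with the GC trend removed and 587 with limma, and 2 members with DESeq2 and 0 with either of the other two. For bFGF against GSK3 it was 848 genes and 1 member with DESeq2 and 212 genes with limma. Leaving out each library in turn gave, for genes and members, 934 to 5991 and 0 to 3 (OSK against GFP), 17 to 1802 and 0 to 3 (OvSvK against OSK), 478 to 6980 and 4 to 10 (day 0), 2908 to 6845 and 2 to 9 (OSK slope), and 189 to 2651 and 0 to 5 (OvSvK slope). It gave 0 to 2646 genes for the GFP slope and 0 to 1074 and 0 to 1 for the slope difference. For the omissions it gave 9 to 3782 and 0 to 5 (bFGF), 3 to 1381 and 0 to 1 (vitamin C), 5 to 4536 and 0 to 4 (GSK3), 0 to 2355 and 0 to 3 (bFGF against vitamin C), and 6 to 1534 and 0 to 1 (bFGF against GSK3). The OSK slope of Ier3 turned to 0.11 with the GC trend removed and without OSK day 0, and ran from -0.48 to 0.0655 over single libraries left out. The ratio of Fos on day 1 over day 0 of OSK turned to 0.36 in TPM and 0.33 with the GC trend removed. Depth limits Fosb, which had under 12 counts on days 3, 5 and 7 of OSK.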
